A study of Homo sapiens with 24 samples.

Results

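The oligoadenylate synthetase family of the human genome comprises OAS1, OAS2, OAS3 and OASL, and its expression was followed on 24 Illumina bead arrays of Huh-7 cells, a line derived from a human hepatocellular carcinoma. The members were taken by gene symbol. Of the 47231 probes on the arrays, 12 were annotated to these 4 genes, with 4 for OAS1, 4 for OAS2, 2 for OAS3 and 2 for OASL, and all 12 passed the filter on dim probes that left 15246 genes. The family was chosen because OAS2 was already known to lead the decreases in the line with an shRNA against HIF-1A and to fall at 24 h of hypoxia in the control line, so the members' differences between lines and their hypoxic change in the control line are given as a description, with no p-value for a member. Where members past a threshold are counted in these contrasts, the count stands beside the share of all genes and nothing is read from it. Tests of members were kept to the course of time within each knockdown line and its difference from the control line.

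All cells carried a lentiviral shRNA and grew in DMEM with 10% fetal bovine serum. The shHIF-1A line, with an shRNA against the oxygen-regulated transcription factor subunit HIF-1A, had 3 arrays after 3 h, 2 after 6 h and 2 after 12 h of 1% oxygen. The shNDRG3 line, with an shRNA against NDRG3, a protein of the N-myc downstream-regulated family, had 2 arrays each after 6, 12 and 24 h of 1% oxygen. The shGFP line, the control with an shRNA against green fluorescent protein, had 2 arrays in normoxia, 3 after 3 h and 2 each after 6, 12 and 24 h of 1% oxygen. Knockdown cells in normoxia, shHIF-1A cells after 24 h and shNDRG3 cells after 3 h were not analysed here, so every difference between lines was measured under hypoxia, and a difference already present in normoxia cannot be told apart from one that arose under hypoxia. The labels do not say whether replicate arrays came from separate cultures, so the p-values measure the spread between these arrays, which may be technical. Each target was silenced in 1 line, and hours of hypoxia cannot be told apart from hours in culture.

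The synthetases OAS1, OAS2 and OAS3 bind double-stranded RNA and then join ATP into short oligoadenylates, which switch on a latent ribonuclease that cuts cellular and viral RNA. OASL keeps the fold but in humans lacks the synthetase activity, carries ubiquitin-like domains and is known to enhance signalling by the RNA sensor RIGI. All 4 genes are classical targets of interferon, and in hepatocytes the family has been studied in responses to hepatitis viruses.

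In RefSeq's annotation of GRCh38.p14, OAS1 (chr12:112906962-112933219), OAS3 (chr12:112938474-112973251) and OAS2 (chr12:112978519-113011723) lie in a row on chromosome 12, with 5254 bases between OAS1 and OAS3 and 5267 bases between OAS3 and OAS2. OASL (chr12:121017761-121039246) lies 8006037 bases beyond OAS2. The promoters of OAS1 and OAS3 are shown alone because the source used here held no promoter sequence of OAS2 or OASL. All members were lower in the knockdown lines, and interferon-stimulated genes are known to carry GAAA repeats near their starts. The sequences are RefSeq's for GRCh38.p14, each of 300 bases on the plus strand, around the gene start, at chr12:112906712-112907011 for OAS1 and chr12:112938224-112938523 for OAS3. Capitals mark matches to either of 2 motifs, GAAA and GAAA with any 2 bases between them, which is the core of the interferon-stimulated response element, and GAAAC repeated with no gap. The matches to both overlap in OAS3.
OAS1: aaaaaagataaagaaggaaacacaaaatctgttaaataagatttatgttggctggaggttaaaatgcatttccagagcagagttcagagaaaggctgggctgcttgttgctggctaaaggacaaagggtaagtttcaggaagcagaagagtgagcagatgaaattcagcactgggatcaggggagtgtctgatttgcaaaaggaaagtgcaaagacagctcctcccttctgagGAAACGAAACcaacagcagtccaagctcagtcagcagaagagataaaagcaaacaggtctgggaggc
OAS3: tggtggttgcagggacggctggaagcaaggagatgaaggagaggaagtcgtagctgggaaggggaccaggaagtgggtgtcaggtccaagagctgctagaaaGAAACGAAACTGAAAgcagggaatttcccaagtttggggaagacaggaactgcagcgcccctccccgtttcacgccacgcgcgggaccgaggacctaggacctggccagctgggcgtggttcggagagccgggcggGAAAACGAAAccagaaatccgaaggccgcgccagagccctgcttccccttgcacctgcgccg
The response element core, searched on both strands, matched the OAS3 promoter at positions -143 to -134 and -12 to -3 from the gene start, and was held by 1255 of 35116 human promoters of the same length (3.57%). It had no match in the OAS1 window. The repeat of GAAAC, chosen after the letters of these promoters were read and searched on both strands, matched OAS1 at -17 to -8 and OAS3 at -148 to -139, and was held by 21 of the 35116 promoters (0.0598%). The matches describe the letters and were not tested for binding.

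Levels are log2 intensities after quantile normalization, on which every array has a median of 7.03, and each gene was followed by its brightest probe. A group mean under 7.62, which is 1.5 times the array median, was treated as a bound, and folds against such a group were computed from that bound and are written as at least that size. Deposited median signals ranged from 115 to 150 over the arrays. The targeted genes followed the labels: HIF1A ranged from 8.81 to 9.67 in the 7 shHIF-1A arrays, against 10.48 to 11.11 in the 11 shGFP arrays, and NDRG3 from 8.24 to 8.60 in the 6 shNDRG3 arrays, against 10.34 to 10.81 in shGFP. The shNDRG3 arrays at 24 h stood apart from each other, with a median absolute difference over genes of 0.208 against 0.0906 to 0.168 in the other replicate pairs, so the members' values that rest on them are also given without each of them. Of 19 hepatocyte markers, only KRT8 and KRT18, keratins of simple epithelia, exceeded 2 times the array median in normoxic shGFP cells. ALB (albumin) stood 0.92 above the median on the log2 scale, and AFP, the fetal counterpart of albumin that hepatoma cells often make, lay 0.27 below it. Of 13 blood cell markers, only CD68, which many cultured lines express, passed that level in normoxia.

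OAS1, the smallest of the active synthetases, was abundant in the control line and much lower in both knockdown lines. Its log2 levels in the shHIF-1A line were 10.21, 9.90 and 10.16 after 3 h, 10.04 and 10.00 after 6 h, and 9.89 and 9.79 after 12 h. In the shNDRG3 line they were 9.53 and 9.59 after 6 h, 9.78 and 9.71 after 12 h, and 10.31 and 9.76 after 24 h. In the shGFP line they were 13.38 and 13.20 in normoxia, 13.31, 13.15 and 13.25 after 3 h, 13.11 and 12.99 after 6 h, 12.64 and 12.45 after 12 h, and 12.00 and 12.16 after 24 h. Every knockdown array was thus lower than every shGFP array, while the knockdown lines overlapped each other. The share of all genes that separate the lines in this way was not counted, so nothing is read from the separation of any member. Averaged over matched hours, OAS1 was 7.77-fold lower in shHIF-1A than in shGFP cells (log2 -2.96 ± 0.076 SE) and 6.85-fold lower in shNDRG3 than in shGFP cells (-2.78 ± 0.081). In bulk samples such as these, fewer cells that express a gene and less RNA per cell cannot be told apart.

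OAS2, which makes oligoadenylates as a membrane-associated dimer, had the widest range of the family. Its levels in the shHIF-1A line were 8.10, 7.82 and 7.89 after 3 h, 7.91 and 7.90 after 6 h, and 7.61 and 7.53 after 12 h. In the shNDRG3 line they were 7.002 and 7.03 after 6 h, 6.68 and 6.75 after 12 h, and 6.58 and 7.22 after 24 h. In the shGFP line they were 14.25 and 14.21 in normoxia, 13.97, 14.03 and 14.24 after 3 h, 14.10 and 14.17 after 6 h, 13.56 and 13.56 after 12 h, and 12.57 and 12.49 after 24 h. The shGFP values lay far above the array median, whereas only 1 of the 6 shNDRG3 arrays exceeded the array median and none reached the bound. OAS2 was at least 68.9-fold lower in shHIF-1A than in shGFP cells (measured difference -6.12 ± 0.077) and at least 55.4-fold lower in shNDRG3 than in shGFP cells (measured difference -6.53 ± 0.082).

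OAS3, the largest synthetase, with repeated synthetase units, differed least of the 4 from shGFP cells in either knockdown line. Its levels in the shHIF-1A line were 10.64, 10.95 and 10.69 after 3 h, 10.72 and 10.89 after 6 h, and 10.46 and 10.67 after 12 h. In the shNDRG3 line they were 10.30 and 10.39 after 6 h, 10.44 and 10.41 after 12 h, and 9.89 and 10.00 after 24 h. In the shGFP line they were 12.98 and 13.13 in normoxia, 13.25, 13.15 and 13.11 after 3 h, 13.15 and 13.25 after 6 h, 12.92 and 12.65 after 12 h, and 11.97 and 11.96 after 24 h. No knockdown array reached the lowest shGFP array. OAS3 was 5.07-fold lower in shHIF-1A than in shGFP cells (-2.34 ± 0.065) and 5.32-fold lower in shNDRG3 than in shGFP cells (-2.41 ± 0.069).

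OASL, the member without synthetase activity, was lower in the shNDRG3 line than in the shHIF-1A line at 6 h and 12 h. Its levels in the shHIF-1A line were 10.08, 9.74 and 9.80 after 3 h, 9.93 and 9.95 after 6 h, and 9.78 and 9.58 after 12 h. In the shNDRG3 line they were 8.39 and 8.59 after 6 h, 8.50 and 8.56 after 12 h, and 8.24 and 9.86 after 24 h. In the shGFP line they were 13.74 and 13.58 in normoxia, 13.47, 13.52 and 13.74 after 3 h, 13.21 and 13.37 after 6 h, 13.14 and 13.19 after 12 h, and 12.28 and 12.39 after 24 h. Again no knockdown array overlapped an shGFP array, and 1 shNDRG3 array at 24 h reached the range of the shHIF-1A line while its partner was the lowest of all 24. OASL was 11.4-fold lower in shHIF-1A than in shGFP cells (-3.51 ± 0.147) and 18.9-fold lower in shNDRG3 than in shGFP cells (-4.24 ± 0.156).

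**Figure D1:**
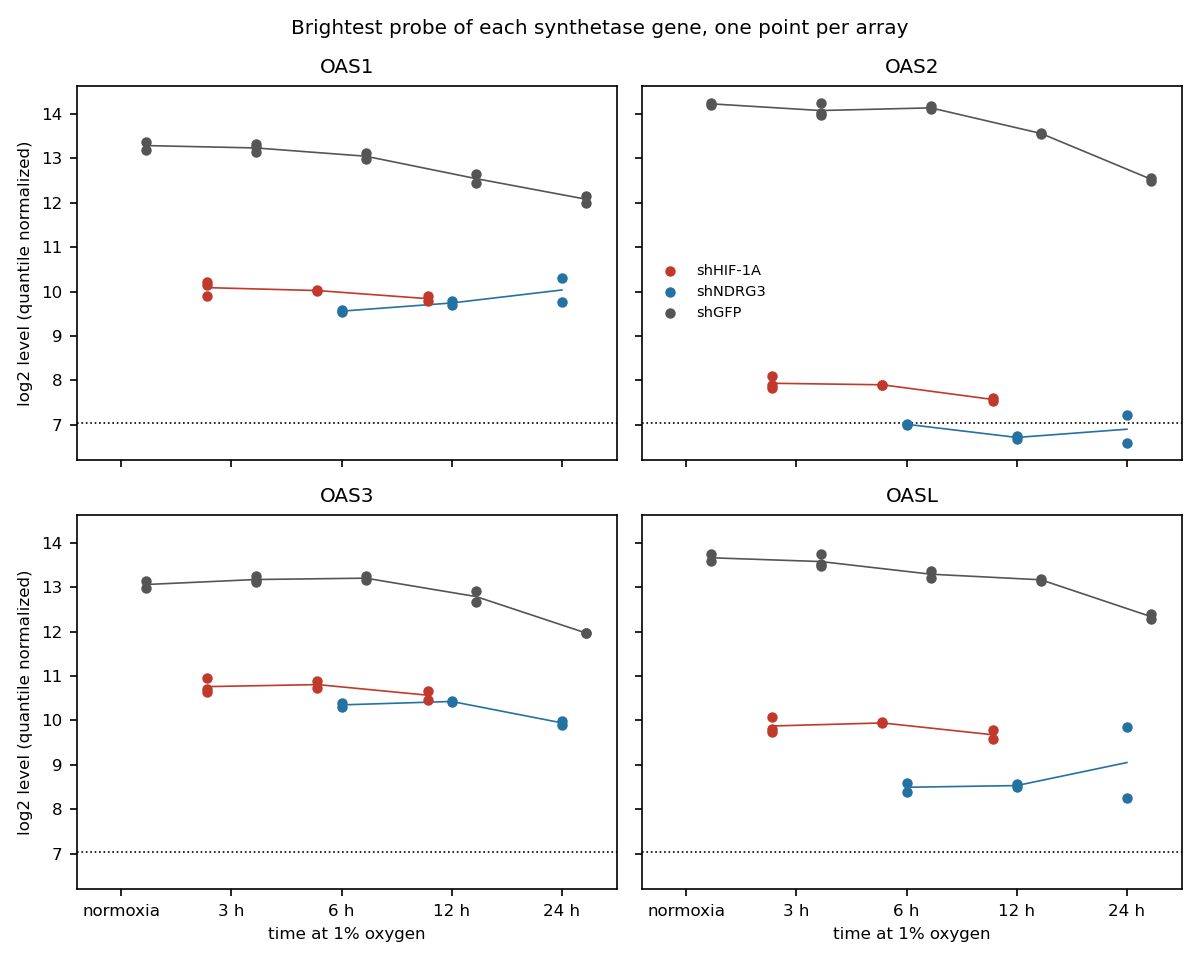
Log2 level of the brightest probe of each gene (vertical axis) on every array, by hours at 1% oxygen (horizontal axis, ordered but not to scale), with lines through group means and a dotted line at the array median of 7.03. The shGFP arrays lie above all knockdown arrays in each panel, and the OAS2 values of the shNDRG3 line lie about the array median.

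Over all 11 groups, the 4 genes shared the split between shGFP and knockdown groups, while the order within each part differed. From the highest level down, the shNDRG3 24 h group ranked 7 for OAS1, 10 for OAS2, 11 for OAS3 and 9 for OASL. The 5 shGFP groups held the upper ranks of each gene, with 24 h at 1% oxygen the lowest of them. The gap between that group and the highest knockdown group was 1.99 for OAS1, 4.59 for OAS2, 1.16 for OAS3 and 2.39 for OASL on the log2 scale. Within the shGFP line the normoxic and 3 h arrays overlapped for OAS1 and OASL. For OAS2 the 3 h arrays overlapped both the normoxic and the 6 h arrays, and for OAS3 neighbouring groups among normoxia, 3 h and 6 h overlapped. Among the knockdown groups, the 3 h and 6 h groups of the shHIF-1A line overlapped for all 4 genes, and for OAS1 both also overlapped the shNDRG3 24 h arrays.

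With adjusted p under 0.05 (limma over 15246 genes), all 4 members were among the genes lower in shHIF-1A than in shGFP cells, where 18.8% of all genes were lower. All 4 were also lower in shNDRG3 than in shGFP cells, where 20.9% of all genes were lower. Since the members were chosen on these contrasts, nothing is read from those counts. The members' median difference was -3.24 in the shHIF-1A line, beside 0.0036 over all genes, and -3.51 in the shNDRG3 line, beside 0.015 over all genes. Both comparisons share the shGFP arrays at 6 h and 12 h, so they are not independent of each other. Without both 24 h arrays of the shNDRG3 line, the members' median there was -3.93. Leaving out the first or the second of them gave differences of -2.87 and -2.68 for OAS1, measured differences of -6.43 and -6.64 for OAS2, and -3.97 and -4.51 for OASL, and that of OAS3 stayed between -2.46 and -2.37 in all fits without 1 array. The mean level of the 10 measured blood cell markers ranged from 7.47 to 7.55 in shHIF-1A arrays and from 7.36 to 7.77 in shNDRG3 arrays, against 7.65 to 7.94 in shGFP arrays. Their median difference was -0.0051 in shHIF-1A and 0.012 in shNDRG3 cells, with 2 and 3 of the 10 called lower and none higher. The part of these markers in the members' differences was not tested.

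The 12 probes are annotated to several transcripts, of which some share one, and the measured difference from shGFP cells was below 0 in both knockdown lines for each, with no overlap of arrays at matched hours. The share of all probes without such overlap was not counted, so nothing is read from the lack of overlap. The 2 dimmest OAS2 probes passed the filter on dim probes through shGFP arrays alone, so the filter fixed their direction and nothing is read from it. The second OAS2 probe exceeded the array median on 1 knockdown array, short of the 2 arrays that the filter asks for. It thus passed only because of the shGFP arrays, and nothing is read from its direction either. The 3 brightest OAS1 probes stayed above the bound everywhere, and their differences ranged from -3.34 to -2.96 in shHIF-1A and from -3.34 to -2.78 in shNDRG3 cells. The fourth OAS1 probe, annotated to NM_016816, was dim, at 8.69 in normoxic shGFP cells, and lay under the bound in all 6 knockdown groups, which leaves folds of at least 1.92 lower in shHIF-1A and at least 1.55 lower in shNDRG3 cells. The second OAS2 probe, annotated to NM_001032731, was under the bound in all knockdown groups too, and was at least 4.70-fold lower in shHIF-1A cells. In shNDRG3 cells it was at least 5.70-fold lower at 6 h and at least 2.87-fold lower at 12 h. At 24 h the shGFP group was under the bound as well, which gives no fold. The fourth OAS2 probe was under the bound in 10 of the 11 groups and gives no fold. The second OASL probe, annotated to NM_003733, was at least 6.52-fold lower in shHIF-1A and at least 5.70-fold lower in shNDRG3 cells.

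**Figure D2:**
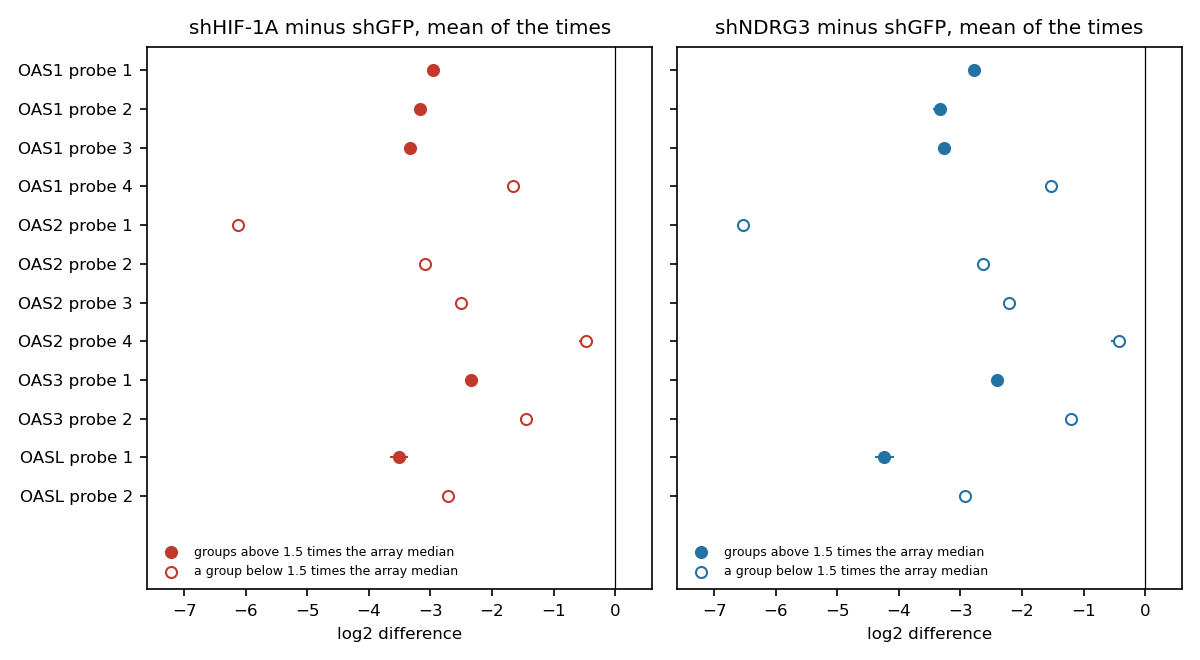
Log2 difference from shGFP cells at matched hours, averaged over the hours (horizontal axis, bars are SE), for each of the 12 probes (rows, ranked by brightness within a gene), in shHIF-1A cells on the left and shNDRG3 cells on the right. All points are measured differences and lie left of 0. Open points have a group below 1.5 times the array median, and folds computed from that bound are smaller than the points show.

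The knockdown lines were compared directly at 6 h and 12 h, without the shGFP arrays. Averaged over these hours, OASL was 2.46-fold higher in shHIF-1A than in shNDRG3 cells (1.297 ± 0.19), and no array of one line overlapped the other. OAS1 was higher by 0.28 ± 0.099 and OAS3 by 0.30 ± 0.084 in shHIF-1A cells, also without overlap. OAS2 had a measured difference of 0.87 ± 0.10. At 6 h only the shNDRG3 group was under the bound, and OAS2 was at least 1.22-fold higher in shHIF-1A cells. At 12 h both lines were under the bound, which gives no fold. Of the 4 members, 3 had an adjusted p under 0.05 with higher levels in shHIF-1A cells, where 8.52% of all genes were higher. This contrast was also known when the members were chosen, and the count and the lack of overlap are a description.

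In the control line the brightest probes of the family were lower late in hypoxia. By these probes no member was called at 3 h or at 6 h, where 1.48% and 4.87% of all genes were called in either direction. Some other probes were lower earlier. The second OASL probe was at -0.52 ± 0.15 at 3 h and -0.73 ± 0.17 at 6 h, and the third OAS2 probe at -0.43 ± 0.12 and -0.43 ± 0.13. Above 0 were the second OAS2 probe at 3 h (0.0066) and the fourth OAS1 probe at 6 h (0.071). Differences between probes were not tested. At 12 h, 2 members, OAS1 (-0.74 ± 0.14) and OAS2 (-0.67 ± 0.14), were called lower than in normoxia, beside 12.2% of all genes, and the values were -0.27 for OAS3 and -0.50 for OASL. At 24 h all 4 were called lower, beside 24.2% of all genes, and since the fall of OAS2 at 24 h was among the reasons for choosing the family, nothing is read from these counts. At that time OAS2 was 3.25-fold lower in hypoxic than in normoxic shGFP cells (-1.70 ± 0.14), OASL 2.51-fold (-1.33 ± 0.27), OAS1 2.31-fold (-1.21 ± 0.14) and OAS3 2.13-fold (-1.09 ± 0.12). The second OAS2 probe was at least 6.32-fold lower at 24 h, while the third OAS2 probe, annotated to NM_002535, was 2.66-fold lower. Among the brightest probes, OAS3 alone had positive values at 3 h (0.11 ± 0.11) and 6 h (0.14 ± 0.12), neither past the threshold. On the values as deposited, with no normalization, these were -0.033 and -0.045. The second OAS3 probe was at 0.075 at 3 h and -0.043 at 6 h.

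**Figure D3:**
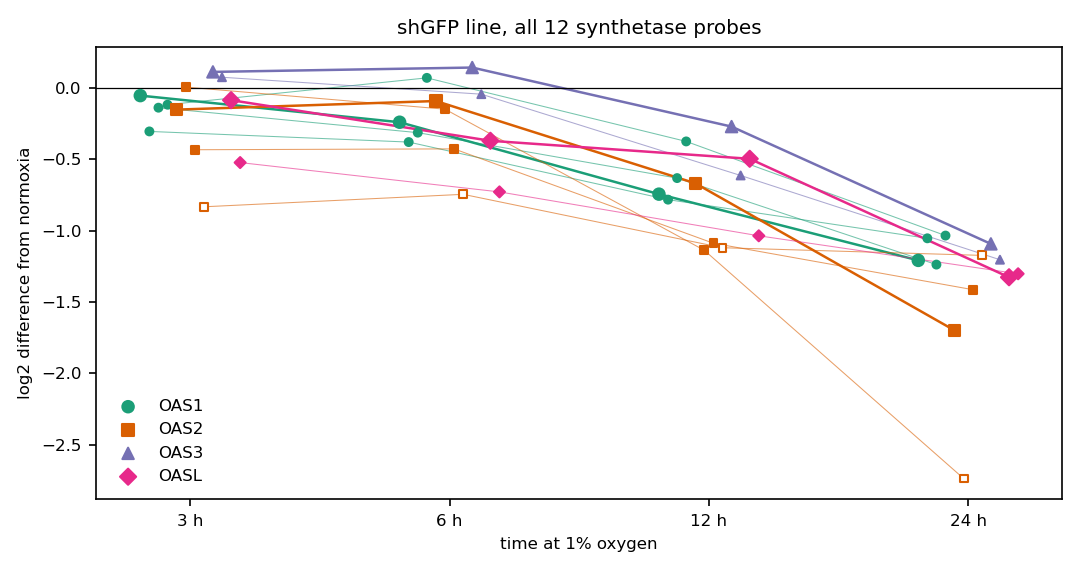
Log2 difference of each of the 12 probes from normoxia in shGFP cells (vertical axis) by hours at 1% oxygen (horizontal axis), with large symbols and thick lines for the brightest probe of each gene and open symbols where a group was below 1.5 times the array median. All probes lie below 0 at 12 h and 24 h, and the lowest point is the second OAS2 probe at 24 h, at -2.74.

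Time within the knockdown lines was tested, since the members were not chosen on it. Between 3 h and 12 h in the shHIF-1A line, only OAS2 of the 4 members passed, with a change of -0.36 ± 0.13 (limma, adjusted p = 0.0477), beside 21.7% of all genes called. It was at the edge of the test and its 12 h group lay under the bound; the adjusted p was 0.09999 with the replicate number as a block. The call was lost in 20 of the 24 fits that left out 1 array (adjusted p up to 0.225), and was kept without either shNDRG3 24 h array, the second shHIF-1A 3 h array or the third shGFP 3 h array. The changes of OAS1 (-0.25 ± 0.13, adjusted p = 0.187), OAS3 (-0.19 ± 0.11, adjusted p = 0.234) and OASL (-0.20 ± 0.25, adjusted p = 0.647) did not pass. Over the same hours the shGFP values were -0.69 for OAS1, -0.52 for OAS2, -0.38 for OAS3 and -0.41 for OASL. For no member did the difference in change between the shHIF-1A and shGFP lines pass the interaction test, with adjusted p of 0.290 for OAS1, 0.811 for OAS2, 0.693 for OAS3 and 0.870 for OASL, where 1.23% of all genes passed. The differences of change were 0.44 ± 0.18, 0.15 ± 0.18, 0.19 ± 0.15 and 0.21 ± 0.35 in the same order of genes, and a p that misses the threshold does not show that the lines changed alike.

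Between 6 h and 24 h in the shNDRG3 line, 2 of the 4 members passed, in opposite directions, beside 40.1% of all genes called. OAS1 rose by 0.48 ± 0.14 (limma, adjusted p = 0.00818) and OAS3 fell by 0.41 ± 0.12 (adjusted p = 0.00795). The OAS1 value depended on the scaling, at 0.26 with median-centred arrays (adjusted p = 0.128) and 0.057 as deposited (adjusted p = 0.739). Both calls were also lost with array weights (adjusted p = 0.0657 for OAS1 and 0.125 for OAS3) and with only the arrays compared in the fit (0.182 for OAS1 and 0.0803 for OAS3). OAS2 (-0.11 ± 0.14, adjusted p = 0.601) and OASL (0.56 ± 0.27, adjusted p = 0.109) did not pass, and the SD of their 24 h arrays was 0.45 and 1.14. The OAS1 call was lost without the first 24 h array (0.20, adjusted p = 0.287) and without the first 6 h array (0.45, adjusted p = 0.058). The OAS3 call was lost without the first 24 h array (-0.35, adjusted p = 0.0527) and without the second 6 h array (-0.36, adjusted p = 0.0669). Without the second 24 h array OAS2 passed, at -0.43 (adjusted p = 0.00753), and without the first its value was 0.21 (adjusted p = 0.232). OASL was at -0.25 without the second 24 h array (adjusted p = 0.191) and at 1.36 without the first (adjusted p = 2.8e-08).

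Over the same hours the shGFP values were -0.97 for OAS1, -1.61 for OAS2, -1.24 for OAS3 and -0.96 for OASL. The change with time in the shNDRG3 line minus that in the shGFP line was 1.44 ± 0.20 for OAS1 (limma interaction test, adjusted p = 2.7e-05), 0.83 ± 0.17 for OAS3 (adjusted p = 0.00185) and 1.51 ± 0.38 for OASL (adjusted p = 0.0106). For OAS2 it was 1.497 ± 0.20, but OAS2 was under the bound throughout the shNDRG3 line, where a further fall could hardly be measured, so no comparison is drawn from it. Of all genes, 6.03% passed in this direction. The fall of the shGFP line that enters each value was known when the members were chosen, so these tests are not independent of the choice. The OAS3 call was lost with median-centred arrays (0.86, adjusted p = 0.0648) and as deposited (0.83, adjusted p = 0.0753), and the OASL call with only the arrays compared in the fit (adjusted p = 0.206). Without the first and without the second shNDRG3 array at 24 h the values were 1.17 and 1.72 for OAS1, 1.82 and 1.18 for OAS2 and 0.88 and 0.78 for OAS3. The OASL value was 0.71 without the second shNDRG3 array at 24 h and 2.32 without the first, past the threshold in both fits. Its call was lost without the first shNDRG3 array at 6 h (1.41, adjusted p = 0.053) and without the second shGFP array at 6 h (1.44, adjusted p = 0.0502).

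**Figure D4:**
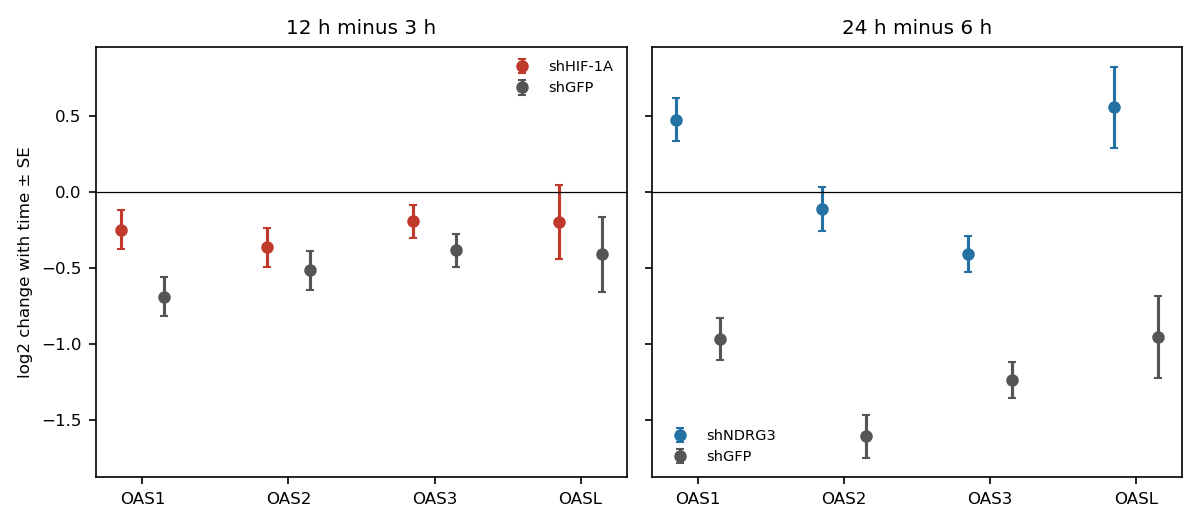
Change in log2 level with time (vertical axis, points with SE) for the 4 genes, between 3 h and 12 h in shHIF-1A and shGFP cells on the left and between 6 h and 24 h in shNDRG3 and shGFP cells on the right. On the right, OAS1 rose by 0.48 in shNDRG3 cells, and all shGFP points lie below the shNDRG3 points.

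Other genes were followed in lists. These were also chosen with earlier results of these data known, so their counts and p-values are not independent of that choice. Over all genes, 19.2% were called higher and 18.8% lower in shHIF-1A than in shGFP cells, and 22.7% higher and 20.9% lower in shNDRG3 cells. At 24 h of hypoxia in the shGFP line, 21.1% were called higher and 24.2% lower than in normoxia. The list counts below stand beside these shares. Of the proteins that act on oligoadenylates, or on the ribonuclease they activate, 4 of 5 listed had a measured probe. ABCE1, a ribosome recycling factor first described as an inhibitor of that ribonuclease, was 1.84-fold higher in shHIF-1A than in shGFP cells (limma, adjusted p = 6.52e-09) and 2.05-fold higher in shNDRG3 than in shGFP cells (adjusted p = 7.12e-10), and 4.70-fold lower in shGFP cells at 24 h of hypoxia than in normoxia (adjusted p = 2.44e-11). In the shHIF-1A line the other 3, PDE12, AKAP7 and PNPT1, were lower by small amounts. PDE12, a phosphodiesterase that degrades oligoadenylates, differed by -0.26 ± 0.056 (adjusted p = 0.000552), and AKAP7, whose mouse protein is known to do the same, by -0.24 ± 0.076 (adjusted p = 0.0141). PNPT1, the mitochondrial polynucleotide phosphorylase, differed by -0.30 ± 0.090 (adjusted p = 0.0111). None of these 3 passed in the shNDRG3 line. The list's median was -0.25 in shHIF-1A and -0.081 in shNDRG3 cells, beside all-gene medians of 0.0036 and 0.015.

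Relatives that share the fold of the synthetases but are not members were called in both directions. Of 6 measured, 2 were higher and 2 lower than in shGFP cells in each knockdown line, with medians of -0.026 in shHIF-1A and 0.022 in shNDRG3 cells. Nothing is read from counts this small beside the shares of all genes. CGAS, the sensor of cytosolic DNA, differed from shGFP by 0.04 in both lines (adjusted p = 0.705 in shHIF-1A and 0.731 in shNDRG3), yet was at least 2.08-fold lower at 24 h of hypoxia than in normoxia in the shGFP line (adjusted p = 2.61e-07). ILF2, a partner protein of RNA-binding complexes, was higher by 0.34 in shHIF-1A (adjusted p = 1.72e-05) and by 0.30 in shNDRG3 cells (adjusted p = 0.000118). MB21D2, whose function is not well described, was lower in shHIF-1A (-0.23, adjusted p = 0.00118) and in shNDRG3 cells (-0.94, adjusted p = 1.08e-12).

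Of 18 measured genes of interferon receptors and signalling, 2 were higher and 9 lower in the shHIF-1A line, and none was higher and 13 were lower in the shNDRG3 line. IRF7, which drives interferon genes, was 6.88-fold lower in shHIF-1A (adjusted p = 2.15e-19) and 9.21-fold lower in shNDRG3 than in shGFP cells (adjusted p = 3.52e-20). IRF9, the DNA-binding subunit of the interferon-activated complex, was 3.12-fold lower in shHIF-1A (adjusted p = 8.26e-15) and 6.02-fold lower in shNDRG3 than in shGFP cells (adjusted p = 2.74e-18). At 24 h of hypoxia in the shGFP line, where the synthetases were lower, IRF7 (0.12, adjusted p = 0.527) and IRF9 (-0.07, adjusted p = 0.739) did not pass. USP18, which restrains interferon signalling and is itself interferon-induced, was the 1 gene of this list that was lower at 24 h, by 6.08-fold (adjusted p = 8.83e-15). At that time 7 of the 18 were higher, among them the receptor subunits IFNGR2 (1.07, adjusted p = 9.5e-08) and IFNAR1 (0.78, adjusted p = 0.00013). The median of the list was -0.18 in shHIF-1A and -0.37 in shNDRG3 cells, and 0.24 at 24 h in the shGFP line, beside -0.0028 over all genes. On the values as deposited, 8 of the 18 were lower at 24 h.

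Among 13 measured RNA and DNA sensors and their adaptors, 8 were lower in shHIF-1A and 9 in shNDRG3 cells, and none was higher. RIGI, the RNA sensor whose signalling OASL is known to enhance, was at least 7.35-fold lower in shHIF-1A (adjusted p = 7.68e-20) and at least 5.18-fold lower in shNDRG3 than in shGFP cells (adjusted p = 4.87e-19), and 2.98-fold lower at 24 h of hypoxia than in normoxia (adjusted p = 9.14e-10). IFIH1, the sensor of long double-stranded RNA, was 4.95-fold lower in shHIF-1A (adjusted p = 3.91e-16) and 6.06-fold lower in shNDRG3 cells (adjusted p = 7.12e-17). STING1, the adaptor downstream of CGAS, was 2.23-fold lower in shHIF-1A (adjusted p = 3.19e-14) and 2.40-fold lower in shNDRG3 cells (adjusted p = 1.04e-14), but differed by 0.11 at 24 h of hypoxia (adjusted p = 0.404).

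The interferon ligands themselves were dim. Of 13 with a named probe, 1 exceeded 2 times the array median in normoxic shGFP cells, and 7 passed the filter. IFNB1, the type I interferon of non-immune cells, stood 1.64 above the array median in normoxic shGFP cells and was at least 1.501-fold lower in shHIF-1A (adjusted p = 7.17e-15) and at least 1.22-fold lower in shNDRG3 than in shGFP cells (adjusted p = 5.46e-14). In the shGFP line IFNB1 was at least 2.07-fold lower at 24 h of hypoxia than in normoxia (adjusted p = 2.42e-07), whereas IFNL1, a type III interferon of epithelia, was 2.88-fold higher (adjusted p = 2.16e-10). IFNL1 was lower in the shHIF-1A line (adjusted p = 2.53e-11) and at least 1.46-fold lower in the shNDRG3 line (adjusted p = 1.95e-15).

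Most of the other listed interferon-induced proteins that act on viral RNA were lower. In each knockdown line 17 of 19 were lower and none higher, beside 18.8% of all genes lower in shHIF-1A and 20.9% in shNDRG3 cells. The median of the list was -2.43 in shHIF-1A and -2.60 in shNDRG3 cells. At 24 h of hypoxia in the shGFP line 13 of 19 were lower, beside 24.2% of all genes, with a median of -0.88. Since the list was chosen with earlier results of these data known, its counts and p-values are not independent of the choice. Of 14 measured common reference genes, 3 were higher and 4 lower in shHIF-1A and 5 higher and 2 lower in shNDRG3 cells, with medians of -0.022 and 0.0069. MX2, a dynamin-like antiviral GTPase, was at least 15.5-fold lower in shHIF-1A (adjusted p = 3.85e-24), at least 7.57-fold lower in shNDRG3 (adjusted p = 4.94e-22) and 8.90-fold lower at 24 h of hypoxia (adjusted p = 6.05e-16). ISG20, an interferon-induced exonuclease, was 7.70-fold lower in shHIF-1A (adjusted p = 3.42e-20) and 6.08-fold lower in shNDRG3 cells (adjusted p = 5.61e-19), while at 24 h of hypoxia it differed by 0.26 (adjusted p = 0.0998). Between the knockdown lines, 10 of the 19 were higher and 1 was lower in shHIF-1A than in shNDRG3 cells. Over all genes, 8.52% were higher and 7.25% lower. ISG15, a ubiquitin-like modifier, was higher in shHIF-1A than in shNDRG3 cells by 1.77 ± 0.20 (adjusted p = 7.55e-07), as OASL was. MX1, the paralogue of MX2, was lower (-0.89 ± 0.081, adjusted p = 1.57e-08).

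**Figure D5:**
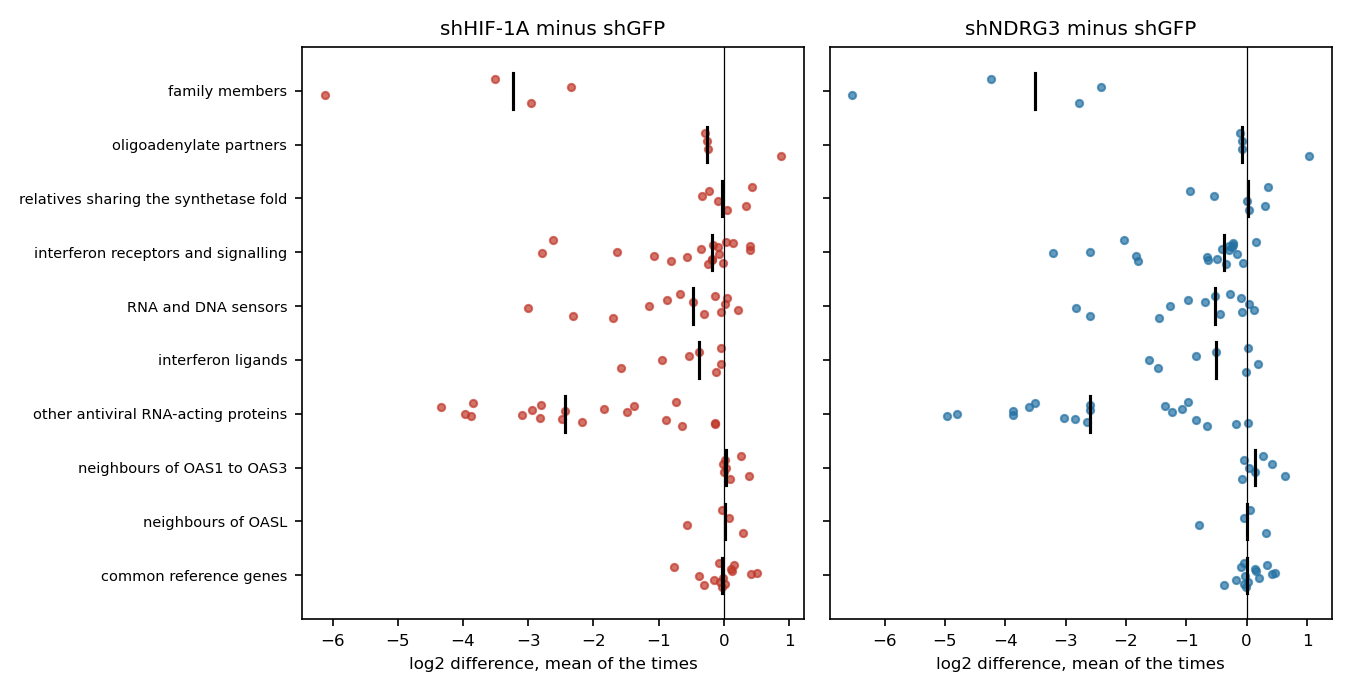
Log2 difference from shGFP cells at matched hours (horizontal axis, 1 point per gene) for the family and the listed gene groups (rows), in shHIF-1A cells on the left and shNDRG3 cells on the right, with a black bar at each median. The medians of the family (-3.24 and -3.51) and of the other antiviral RNA-acting proteins (-2.43 and -2.60) lie furthest from 0.

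Genes beside the synthetases on chromosome 12 were measured too. Of 7 measured genes within 250000 bases of OAS1, OAS2 or OAS3, none was lower in either knockdown line, 2 were higher in shHIF-1A and 3 in shNDRG3 cells. Over all genes, 18.8% were lower and 19.2% higher in shHIF-1A cells, and 20.9% lower and 22.7% higher in shNDRG3 cells. With 7 genes, nothing is read from these counts. DDX54, an RNA helicase of ribosome assembly, was higher by 0.39 in shHIF-1A (adjusted p = 2.26e-06) and by 0.64 in shNDRG3 cells (adjusted p = 1.78e-09), and 2.52-fold lower at 24 h of hypoxia than in normoxia (adjusted p = 8.64e-11). Of 4 measured neighbours of OASL, P2RX4, an ATP-gated channel, was lower in shHIF-1A (-0.57, adjusted p = 1.19e-08) and in shNDRG3 cells (-0.78, adjusted p = 8.73e-11), and CAMKK2, a calcium-dependent kinase, was higher by 0.29 in shHIF-1A (adjusted p = 0.000625) and by 0.32 in shNDRG3 cells (adjusted p = 0.000388).

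The genes whose group means over the 11 groups were most like the family's mean profile were HERC6 (r = 0.998), SAMD9L (0.996), IFI44 (0.995), IFIT3 (0.995), TMEM140 (0.995), PARP9 (0.995), TAP1 (0.995) and RIGI (0.995). Of 15242 other genes, 111 had r over 0.95 and 22 over 0.99. HERC6 and IFIT3 are in the antiviral list above and RIGI in the list of sensors. The most opposed profiles were those of ABLIM1 (-0.988), UBE4A (-0.984), ARHGAP19 (-0.984), PABPC3 (-0.971), TOMM20 (-0.971), RBBP4 (-0.969), LPP (-0.963) and APRT (-0.961). These correlations describe 11 group means that share arrays and a large step between lines. For HERC6 the values were -2.82 in shHIF-1A, -3.02 in shNDRG3 and -0.88 at 24 h of hypoxia, and for ABLIM1 they were 0.85, 0.98 and 0.30 in the same order.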

How the data were processed

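Per the labels, total RNA of 24 Huh-7 samples was hybridised to Illumina bead arrays. The deposited table holds linear intensity values for 47231 probes, and the sources used here do not give the scanner software, background correction or normalization behind them. Deposited mean signals ranged from 769 to 1192 per array, and the number of arrays limits the precision.

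Intensities were quantile normalized on the log2 scale with limma 3.58.1 in R 4.3.3. Probes above the array median on at least 2 arrays were kept (31100), and each gene was represented by its brightest kept probe on average. Platform annotation named 1 gene for 30113 probes and several for 8, and did not list 17110. 1 model with 11 group means was fitted to all 15246 genes, and p-values were adjusted by Benjamini-Hochberg over all genes for each contrast, with 0.05 as the threshold. Tests were two-sided. Fits were tested on simulated data. Values after ± are standard errors of the fit. Replicate arrays were compared first: correlations ran from 0.98 to 0.997 over 15 pairs, and no 2 arrays were copies. Most same-numbered arrays of different groups did not deviate together (median r -0.0016 over 111 pairs), so replicate numbers were not used as pairs. Of these pairs, 8 had r over 0.1, up to 0.278, against 1 of 150 pairs with different numbers. What those arrays share was not tested.

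The members and gene lists were chosen with earlier results of these data known. Genes named are the members, the silenced targets, IRF9, the up to 4 genes of each list with the smallest p in the hypoxia contrast at 24 h and the knockdown averages, and the 8 genes most and least like the family; ISG15 and MX1 between the knockdown lines, and CGAS, STING1, IRF7 and AKAP7 in contrasts where they ranked lower, were named after their values were seen. Some listed genes had no named probe and were not analysed here. Alternatives covered scaling, background, filter, probe choice, replicate block, array weights, arrays fitted and leaving out each array.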

Additional observations from a re-analysis of the deposited data

Results flagged for a closer look

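The change between 6 h and 24 h of hypoxia differed between the shNDRG3 and shGFP lines by the interaction test (limma, adjusted over 15246 genes), which is not independent of how the family was chosen, since the fall of the shGFP line that enters it was known. The difference, shNDRG3 minus shGFP, was 1.44 for OAS1, 1.497 for OAS2, 0.83 for OAS3 and 1.51 for OASL on the log2 scale. OAS2 was below 1.5 times the array median throughout the shNDRG3 line, so its value is fixed by that floor and the shGFP fall and is given as a description. The OAS3 call was lost with median-centred arrays (adjusted p = 0.0648) and as deposited (adjusted p = 0.0753), and the OASL call with only the arrays compared in the fit (adjusted p = 0.206). The replicate pair of shNDRG3 at 24 h disagreed more than any other pair, and its part in these values was not tested beyond leaving out each array.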

How the results depend on the processing

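In 33 alternatives each (34 for the shNDRG3 average), every member was lower in shHIF-1A and in shNDRG3 than in shGFP cells, and lower at 12 h and 24 h of hypoxia than in normoxia. The members' median at 24 h was -1.52 with median-centred arrays and -1.86 as deposited, where all genes shifted by -0.41. With normexp it was -3.66 in shNDRG3 cells and 0.86 between the knockdown lines. With the mean of kept probes it was -2.91 in shHIF-1A, -2.84 in shNDRG3 cells and 0.32 between them. Without the 24 h arrays, a choice made after seeing the data, it was -3.93 in shNDRG3 cells. As deposited, and with the mean of kept probes, 4 members were called at 12 h. Time in the shHIF-1A line was less stable. OAS2 lost its call with median-centred arrays (-0.35), normexp (-0.50), no filter (-0.36), the mean of kept probes (-0.18), the arrays compared alone (-0.36) and the replicate block (-0.34, adjusted p = 0.09999). The block changed no other call of a member, and most same-numbered arrays of different groups did not deviate together. OAS1 gained one as deposited (-0.55) and with array weights (-0.32), and OAS3 as deposited (-0.52). Over fits without 1 array OAS2 ranged from -0.42 to -0.28. In the shNDRG3 line OAS1 lost its call with median-centred arrays (0.26), as deposited (0.057), array weights (0.48) and the arrays compared alone (0.48). OAS3 lost it with array weights (-0.41) and the arrays compared alone (-0.41), and OASL gained one with the mean of kept probes (0.50). Without 1 array these changes ranged from 0.20 to 0.75 for OAS1, from -0.43 to 0.21 for OAS2, from -0.46 to -0.35 for OAS3 and from -0.25 to 1.36 for OASL, and OAS2 and OASL changed sign when 1 array of the shNDRG3 24 h pair was left out. The OAS3 interaction lost its call with median-centred arrays (0.86) and as deposited (0.83), and that of OASL with the arrays compared alone (1.51) and without 1 of 2 arrays at 6 h, ranging over fits without 1 array from 0.71 to 2.32. As deposited, 10 sensors were lower at 24 h. Over all genes, calls at 3 h numbered 226, and 98 with median-centred arrays and 415 with the arrays compared alone. The causes were not tested. Signals near the array median limit what OAS2 can show in the knockdown lines.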

Other observations

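Within groups, deviations from the group mean of OAS2 and OASL ran together, with r = 0.94 over 24 arrays and 0.84 over the 22 arrays without shNDRG3 at 24 h. For OAS1 and OASL the same value was -0.58 over 24 arrays and 0.43 over 22, so its sign rests on the shNDRG3 24 h pair, in which OAS1 was at 10.31 and 9.76 where OASL was at 8.24 and 9.86. OAS1 and OAS2 had -0.50 over 24 arrays and 0.28 over 22. OAS3 ran against the others over the 22 arrays, with -0.37 for OAS1, -0.54 for OAS2 and -0.51 for OASL. Over 24 arrays its values were -0.38, -0.14 and 0.00063 in the same order. These are descriptions over arrays that share their normalization.

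On the OAS2 gene, the probe annotated to NM_001032731 and the one annotated to NM_002535 were at -1.14 and -1.09 relative to normoxia at 12 h in the shGFP line, while at 24 h the first was at -2.74, with its 24 h group below 1.5 times the array median, and the second at -1.41. The difference between these probes was not tested.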
